A study of Nothobranchius furzeri with 168 samples.

Results

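Skin RNA of 5 MZM-0403 males aged 35 days was compared with skin RNA of 6 MZM-0403 males aged 21 days. MZM-0403 is a longer-lived strain of the turquoise killifish (Nothobranchius furzeri). The 11 libraries were taken by the strain, sex, age and tissue of their labels. They are 11 of the 84 skin libraries and 11 of the 168 libraries of the series. The series sampled the brain and the skin of 84 fish of 3 strains, the short-lived GRZ-D and the longer-lived MZM-0403 and MZCS-0403, at several ages. Each replicate was a separate fish, from which 1 brain and 1 skin library were made.

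Other groups enter only beside the MZM-0403 values. They are skin of GRZ-D males at day 35 (n = 6) and day 21 (n = 8), skin of MZCS-0403 males at day 39 (n = 4) and day 21 (n = 6), the brains of the same 11 MZM-0403 males, and skin of MZM-0403 females at day 147 (n = 5) and males at day 287 (n = 6). The labels name no treatment and no engineered allele for any of these groups. They give no date, tank or batch.

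The skin of a bony fish is a living epidermis kept moist by mucus, over a dermis that carries the scales and holds pigment cells, vessels, nerves and immune cells. Annual killifish live in pools that dry out, and they grow and mature very fast. Males of this species take on bright colours on the body and fins as they mature. The deposited gene IDs are not paired with names, and none of them matched a RefSeq gene table of the species. Genes are therefore given by ID, without function or sequence, and lists of pathway genes and cell type markers could not be applied. In bulk tissue, fewer cells of a type and less RNA per cell cannot be told apart.

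Total counts of the 11 libraries lay between 20717900 and 36230200, with a mean of 28723000 ± 6601830 at day 35 and 23514900 ± 2061460 at day 21 (SD, n = 5 and 6; exact permutation p 0.123, 2-sided). All 11 libraries carried a skin profile. Their correlation across genes was 0.912 to 0.948 with the mean GRZ-D skin profile of day 21 and 0.459 to 0.552 with the mean GRZ-D brain profile. Genes at least 16-fold higher in GRZ-D brain than skin, 1996 in number, held 0.251 ± 0.0632% of the counts at day 35 and 0.277 ± 0.0247% at day 21 (exact permutation p 0.374). The same genes held 21.7 to 23.0% in GRZ-D brain. Defining markers of skin cells could not be checked without gene names.

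The age groups separated along the main axis of variation. In a principal component analysis of the 2000 most variable genes, on log2 CPM (counts per 1000000 counts of the scaled library), the first component held 45.1% of the variance, and every day 35 library lay at 25.9 or above, against -18.2 or below for every day 21 library. On the second component, with 20.6% of the variance, replicate 4 of day 35 stood apart at 66.5, while the other day 35 libraries lay between -42.6 and -11.9. Pairs of day 35 libraries correlated across genes at 0.912 to 0.978, pairs of day 21 libraries at 0.955 to 0.982, and pairs across the ages at 0.881 to 0.939. Without replicate 4, pairs of day 35 libraries correlated at 0.935 or above. The counts of large rises and the values of the named genes are also given without replicate 4.

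**Figure D1:**
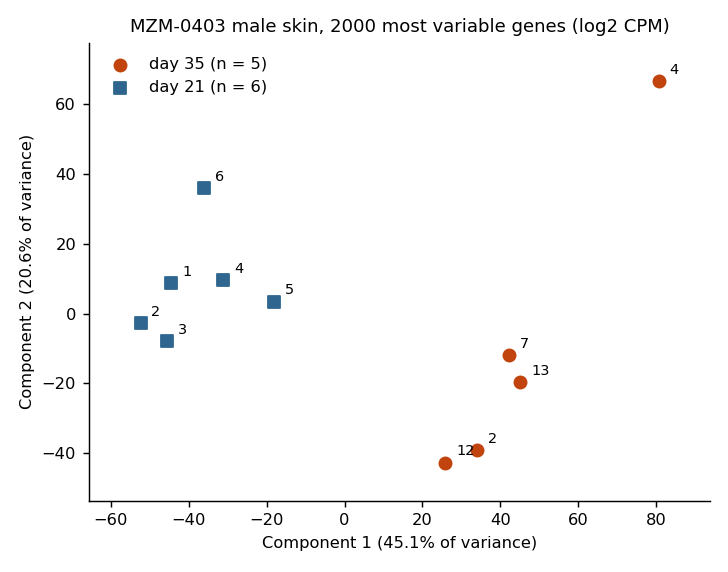
Principal components 1 and 2 of log2 CPM of the 2000 most variable genes, with 1 point per MZM-0403 male skin library and its replicate number. The 5 day 35 libraries lie right of the 6 day 21 libraries on component 1, and replicate 4 of day 35 lies apart at 66.5 on component 2.

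A large share of the genes measured in skin differed between the ages. Of 20465 genes tested, 9257 differed between day 35 and day 21 (45.2%; edgeR quasi-likelihood test, Benjamini-Hochberg adjusted p under 0.05 over all genes tested). Of these, 4979 were higher at day 35 (24.3% of the genes tested) and 4278 were lower (20.9%). The median change of the higher genes was 1.01 on the log2 scale, and that of the lower genes was -0.76. Large changes were mostly rises. At least 2-fold changes numbered 2517 up (12.3%) and 1294 down (6.32%). At least 4-fold changes numbered 801 up (3.91%) and 164 down (0.801%), and at least 16-fold changes 129 up (0.63%) and 2 down (0.00977%). Many large rises started near the floor of counting. The median of the day 21 means was 0.354 CPM over the 801 genes and 0.0923 CPM over the 129.

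The split into higher and lower genes depended on the scaling of the libraries. With the TMM factors used throughout, the higher genes were 53.8% of those that differed. With total counts alone they were 65.5%, with 5563 higher and 2927 lower, and the median log2 change of all genes moved to 0.16 from 0.03. The counts of large changes also moved with the processing. At least 4-fold rises numbered 594 without replicate 4 of day 35 and 488 when the 11 libraries were fitted alone. They numbered 1076 with all 84 skin libraries and 1038 without the filter on low counts. At least 4-fold falls numbered 248 without replicate 4 of day 35, 307 with limma voom and 110 with the 11 libraries alone. At least 16-fold rises numbered 81 without replicate 4, 73 with limma voom, 200 with all 84 skin libraries and 53 with the 11 libraries alone, where 76 of the 129 genes were not tested. At least 16-fold falls stayed between 0 and 10 over the alternatives.

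The difference was wide across genes and repeated across fish. The levels in CPM of the 5 day 35 libraries and the 6 day 21 libraries did not overlap for 4021 genes (19.6% of those tested), and 3966 of these were among the genes that differed, 2051 higher and 1915 lower at day 35. With each of the 11 libraries left out in turn, 6651 genes differed in the same direction every time (32.5%), 3501 higher and 3150 lower. Large rises repeated less often than falls of at least 2-fold. Of the 801 genes up at least 4-fold, 45.3% did not overlap and 63.8% differed every time. Of the 129 genes up at least 16-fold, 41.1% and 71.3% did. Of the 1294 genes down at least 2-fold, 55.8% and 83.9% did. The genes that were higher at day 35 together held 23.8 to 35.0% of the counts of each day 35 library, against 12.4 to 13.7% in the day 21 libraries. The genes that were lower held 20.5 to 24.9% at day 35, against 37.5 to 43.8% at day 21. These shares describe genes chosen by the same comparison.

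Rises and falls lay at different levels of expression. Among genes with a mean over the 11 libraries of 1 to 10 CPM, 67.8% of those that differed were higher at day 35, and under 1 CPM 63.3% were. Between 10 and 100 CPM the share was 41.3%, and above 100 CPM it was 37.1%. These shares were taken with TMM factors only. With total counts the share over all genes that differed was 65.5% in place of 53.8%, so the shares by level may move too. Of the 930 genes above 100 CPM, 189 were higher and 320 lower at day 35. The most counted transcripts took a smaller share at day 35. The 10 genes with the most counts in a library took 17.8%, 23.7%, 17.5%, 18.7% and 22.2% of its counts in replicates 2, 4, 7, 12 and 13 of day 35, and 22.5 to 29.0% in the 6 libraries of day 21. The ranges overlapped only where replicate 4 of day 35 lay above replicate 6 of day 21. The means were 20.0 ± 2.80% and 26.8 ± 2.37% (SD, n = 5 and 6), which differed by an exact permutation test (p 0.00649, adjusted over 5 values per library 0.0162). The 100 most counted genes took 42.7 to 50.6% at day 35 and 46.7 to 53.4% at day 21, and these ranges overlapped widely.

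More genes were detected at day 35. Genes with at least 1 count numbered 22762 ± 286 at day 35 and 22177 ± 57.3 at day 21 (SD, n = 5 and 6), and every day 35 library lay above every day 21 library. The exact permutation p was 0.00216, the smallest that 5 against 6 libraries allow, and 0.0108 after adjustment. The day 35 libraries were on average deeper. At the depth of the smallest of the 11 libraries the expected numbers were 22422 ± 429 at day 35 and 22030 ± 97.8 at day 21, the ranges overlapped, and the exact permutation p was 0.0411, or 0.0685 after adjustment. At equal depth the difference of 392.1 genes thus missed the threshold. It was 479.9 genes without replicate 12 of day 35 (adjusted p 0.0397) and 501.8 without replicate 13 (adjusted p 0.0238, both exact permutation tests), which passed, and 235.7 genes without replicate 4 (adjusted p 0.10), which did not.

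The spread between fish was larger at day 35 for most genes. Over the 20465 genes tested, the median SD of log2 CPM between libraries was 0.422 at day 35 and 0.315 at day 21. Of these genes, 68.4% had the larger SD at day 35. Without replicate 4 the day 35 median was 0.397, and the share was 61.9%. Single fish stood out in different genes, counted over the 11910 genes with a mean of at least 5 CPM over the 11 libraries. Replicate 4 of day 35 lay at least 4-fold above all other day 35 libraries in 41 of these genes and replicate 7 in 38, against 1 or 0 in each of the other 3 day 35 libraries and at most 10 in a day 21 library. A library lay at least 4-fold below all others of its group in 2 to 12 genes at day 35 and in 0 to 14 at day 21. These values are a description and were not tested.

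The genes named here are those with the largest changes in each direction that also differed with every library left out, did not overlap between the ages and reached 5 CPM in the higher group. The rule was met by 1458 genes that rose and 1580 that fell, and the first 2 of each are named. Both genes that rose were close to absent at day 21. Nfu_g_1_004382 had 0.685, 37.9, 4.87, 1.78 and 36.0 CPM in replicates 2, 4, 7, 12 and 13 of day 35, against a lowest value of 0, a median of 0.0991 and a highest value of 0.190 CPM in the 6 day 21 fish. Day 35 fish spanned more than an order of magnitude, and even the lowest of them lay above all day 21 fish, as the rule required. The means were 16.3 ± 19.0 CPM at day 35 and 0.0983 ± 0.0725 CPM at day 21 (SD), from 2221 counts over the day 35 libraries and 13 over the day 21 libraries. The log2 fold change was 7.36 (SE 2.25, edgeR adjusted p 0.00843). Without replicate 4 of day 35 it was 6.78 (edgeR adjusted p 0.0176, under 0.05 by the rule), and the day 35 mean was 10.8 ± 16.9 CPM (SD, n = 4). This call was lost with limma voom, which gave 5.34 with an adjusted p of 0.0559, the highest in a range over the alternatives that began at 0.000368.

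Nfu_g_1_013036 had 0.228, 21.4, 1.62, 1.90 and 16.5 CPM in replicates 2, 4, 7, 12 and 13 of day 35, against a lowest value of 0, a median of 0.0644 and a highest value of 0.165 CPM at day 21. Replicates 4 and 13 were high in both genes and replicate 2 was lowest in both. For Nfu_g_1_013036 replicate 2 exceeded the highest day 21 library by little. Its means were 8.33 ± 9.87 CPM at day 35 and 0.0815 ± 0.0663 CPM at day 21, and its log2 fold change was 6.53 (SE 1.82, edgeR adjusted p 0.00423). Without replicate 4 the day 35 mean was 5.05 ± 7.65 CPM (n = 4) and the log2 fold change was 5.81 (edgeR adjusted p 0.0117, under 0.05 by the rule for named genes).

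The named genes that fell changed less in fold but more evenly. Nfu_g_1_018267 had 4.57, 12.2, 12.5, 8.24 and 10.7 CPM in replicates 2, 4, 7, 12 and 13 of day 35, against a lowest value of 47.4, a median of 147 and a highest value of 267 CPM at day 21. The rule required every day 21 fish to lie above the highest day 35 fish, and here the gap was wide. The means were 9.65 ± 3.30 CPM at day 35 and 148 ± 82.4 CPM at day 21, and the log2 fold change was -3.94 (SE 0.59, edgeR adjusted p 2.93e-06). Nfu_g_1_001651 had 0.178, 0.571, 0.430, 0.528 and 0.761 CPM at day 35, against a lowest value of 4.92, a median of 6.53 and a highest value of 9.76 CPM at day 21. Its means were 0.494 ± 0.214 CPM at day 35, from 7 to 23 counts per library, and 6.99 ± 1.83 CPM at day 21. The log2 fold change of Nfu_g_1_001651 was -3.83 (SE 0.37, edgeR adjusted p 1.98e-09). Without replicate 4 the log2 fold changes of the genes that fell were -4.04 for Nfu_g_1_018267 and -3.88 for Nfu_g_1_001651.

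**Figure D2:**
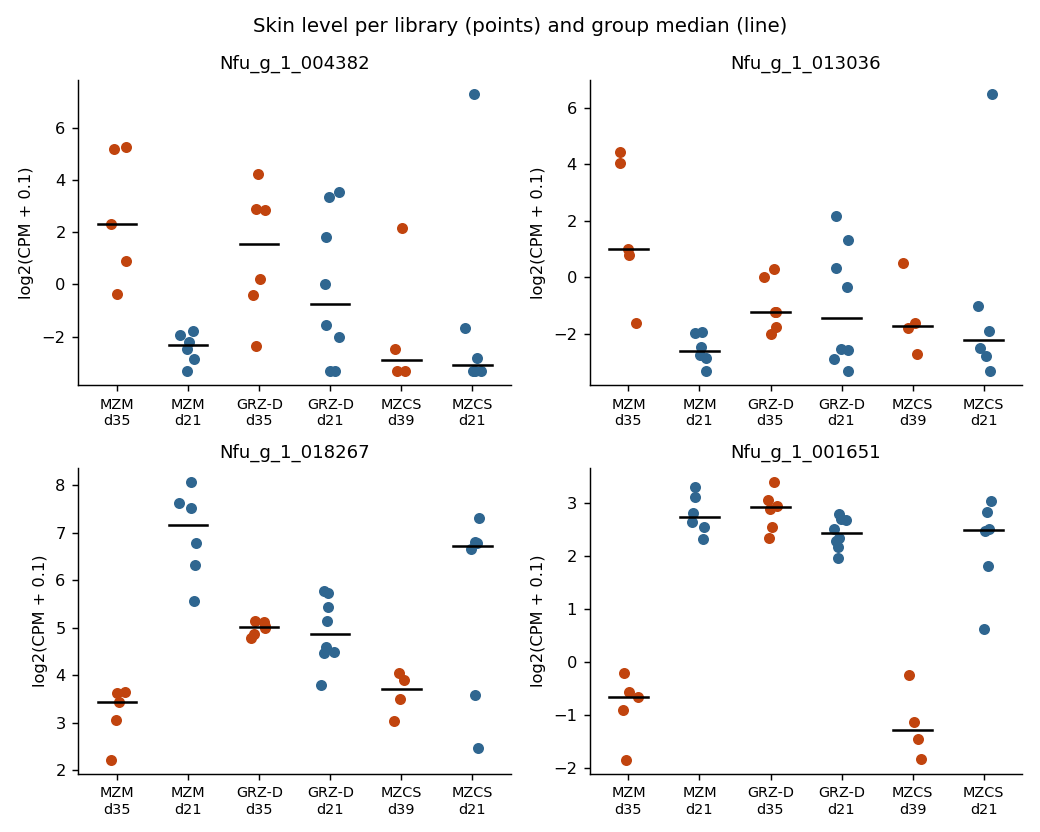
Level of the 4 named genes in each young male skin library, on the scale log2(CPM + 0.1), with the later age left of day 21 within MZM-0403 (MZM), GRZ-D and MZCS-0403 (MZCS). Lines mark group medians. The MZM-0403 ages do not overlap in any panel, as the rule that chose these genes required. Replicate 6 of MZCS-0403 day 21 is the single high point in both upper panels.

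Most of the genes with the largest rises were highest in the same day 35 fish. Over the 129 genes that rose at least 16-fold, the median level was 0.228, 4.57, 1.0, 0.673 and 2.41 CPM in replicates 2, 4, 7, 12 and 13 of day 35, against 0.0390 to 0.108 CPM in the day 21 libraries. Replicate 4 held the highest day 35 value for 62.8% of the 129 genes, for 46.2% of the 801 genes that rose at least 4-fold, and for 26.7% of the 2517 that rose at least 2-fold. These lists were chosen by the size of the rise in the same libraries, which favours genes that 1 high day 35 fish lifts. The MZM-0403 levels and the shares of replicate 4 are therefore partly set by the choice. Of the 129 genes, 98 still differed without replicate 4, and 5 no longer passed the filter on low counts.

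The same 129 genes were high in a single young fish of another strain. Replicate 6 of MZCS-0403 day 21 had a median of 7.01 CPM over them, above every MZM-0403 library, while the other 5 libraries of its group had 0.0830 to 0.217 CPM. The medians were 0.291 to 0.837 CPM in GRZ-D at day 35 and 0.0668 to 1.09 CPM in GRZ-D at day 21, and these ranges overlapped. MZCS-0403 had 0.111 to 0.683 CPM at day 39. The median of all genes tested was 2.71 to 2.95 log2 CPM in these libraries. The TMM scaling itself holds this median close, so it is no control for the 129 genes. What sets the fish with high levels apart was not tested.

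**Figure D3:**
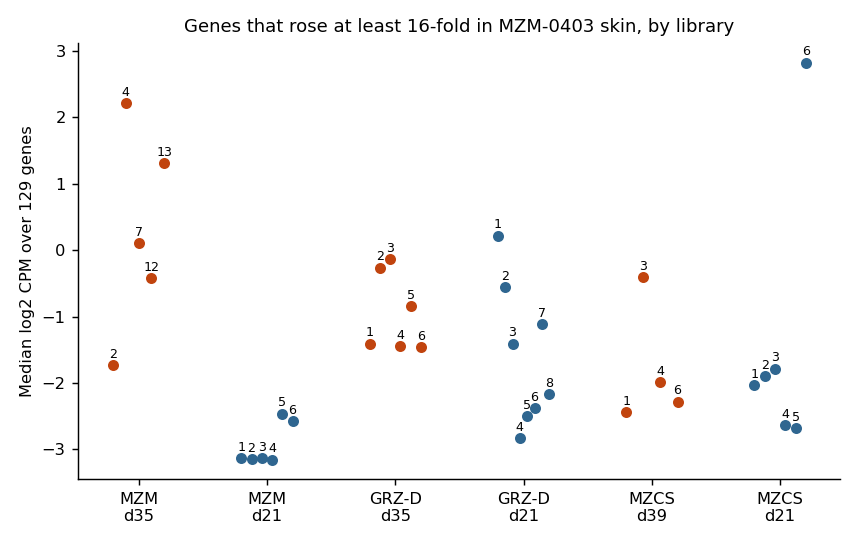
Median log2 CPM, over the 129 genes that rose at least 16-fold in MZM-0403 skin, in each young male skin library, labelled by replicate number, with the later age left of day 21 within each strain. All 5 MZM-0403 day 35 libraries lie above the 6 of day 21, with replicate 4 highest among them, and replicate 6 of MZCS-0403 day 21 is the highest of all. The genes were chosen by their rise between these MZM-0403 libraries, so the gap between the MZM-0403 ages is largely set by the choice.

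To see whether these levels held later in life, the gene lists were followed in older MZM-0403 skin. The lists were chosen on day 35 and day 21, so the levels at these ages are set by the choice, and only those of day 147 and day 287 are independent of it. The 2517 genes that rose at least 2-fold had a median level of 0.56, 2.17, 1.60 and 1.68 log2 CPM at days 21, 35, 147 and 287, each the median over the libraries of that age. The libraries of days 147 and 287, at 1.36 to 1.84, lay between those of day 21 and those of day 35 without overlap with either. The 1294 genes that fell at least 2-fold had 2.96, 1.56, 1.49 and 1.81 log2 CPM at the same ages. Their libraries at days 147 and 287 lay below all day 21 libraries. The choice of genes widens the gap between day 21 and day 35. For both lists, where the later libraries lie against these ages is therefore partly set by the choice. Over all 20465 genes the medians were 2.77, 2.92, 2.82 and 2.80 log2 CPM. The day 147 fish were female, so sex and age cannot be told apart at that step.

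**Figure D4:**
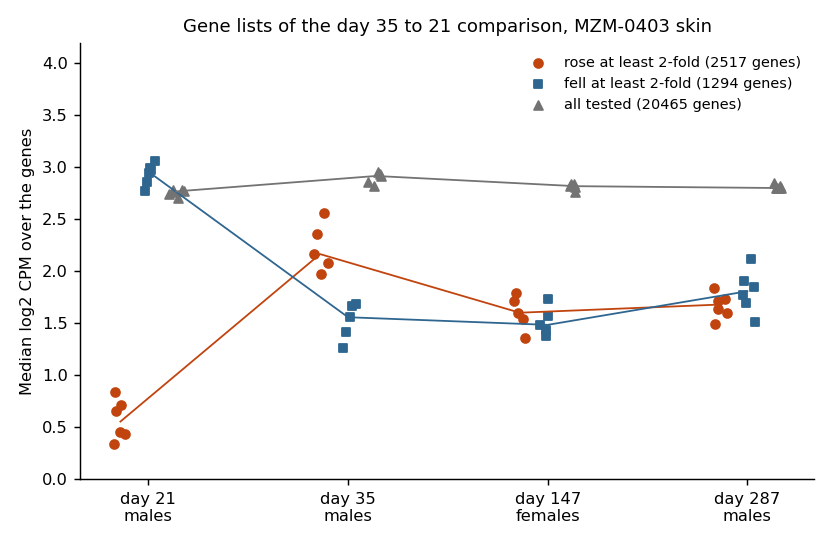
Median log2 CPM per MZM-0403 skin library over the genes that rose at least 2-fold, the genes that fell at least 2-fold and all genes tested, at days 21, 35, 147 (females) and 287. Lines join group medians. At days 147 and 287 the genes that rose lie between their day 21 and day 35 levels, and the genes that fell lie below their day 21 level. The genes were chosen by their change between days 21 and 35, so these positions are partly set by the choice.

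The named genes, chosen by the same comparison of day 35 with day 21, followed different courses. Nfu_g_1_004382 had a median of 0.437 CPM at day 147 (0.140 to 1.74) and 0.325 CPM at day 287 (0.151 to 0.50), and all older libraries except 1 at day 147 lay below the lowest day 35 library of 0.685 CPM. Nfu_g_1_013036 was at 0.0261 to 0.291 CPM at day 147 and 0.0572 to 0.212 CPM at day 287, which overlapped its day 21 range. Nfu_g_1_018267 was at 2.29 to 19.3 CPM at day 147 and 12.5 to 46.6 CPM at day 287, below the lowest day 21 library of 47.4 CPM. Nfu_g_1_001651 was at 0.146 to 0.910 CPM at day 147 and 0.0572 to 0.440 CPM at day 287, also below all day 21 libraries.

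Whether the skin of the short-lived strain changed in the same way was asked with GRZ-D males of the same ages, which share no library with MZM-0403. By the same edgeR fit, 5480 genes changed in the skin of GRZ-D (26.8%), of which 2669 were higher at day 35 than at day 21 (13%) and 2811 lower (13.7%). Of the 4979 genes that rose in MZM-0403 skin, 18.1% rose and 9.16% fell in GRZ-D. Of the 4278 genes that fell in MZM-0403, 19.7% fell and 10.6% rose in GRZ-D. Set against the 13% and 13.7% of all genes, both lists held a somewhat larger share of GRZ-D changes of their own direction and a smaller share of the opposite ones. It held for the larger rises: of the 2517 genes that rose at least 2-fold in MZM-0403, 20.3% rose and 4.17% fell in GRZ-D. It did not hold for the larger falls: of the 1294 genes that fell at least 2-fold in MZM-0403, 13.1% fell and 12.1% rose in GRZ-D. Most MZM-0403 genes, however, were not past the threshold in GRZ-D, and the median GRZ-D change was 0.13 log2 over the genes that rose and -0.05 over those that fell. Across 20465 genes the log2 fold changes correlated at 0.196 (Pearson) and 0.139 (Spearman), where genes are not independent replicates and both changes come from the same fit.

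The difference between the strains was tested directly. The age change differed between MZM-0403 and GRZ-D in 7290 genes (35.6%; edgeR interaction), with a more positive change in MZM-0403 for 3949 (19.3%) and a more negative one for 3341 (16.3%). In 2609 of the 7290 the estimate was upward in MZM-0403 and downward in GRZ-D, and in 2533 it was the reverse. In 1058 both were upward and in 694 both were downward with the larger size in MZM-0403, against 114 upward and 282 downward with the larger size in GRZ-D. The change was past the threshold in both strains with opposite signs for 910 genes, 456 of them higher at day 35 in MZM-0403.

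With total counts in place of TMM, the interaction gave 5897 genes with a more positive and 1662 with a more negative change in MZM-0403, or 78.0% positive in place of 54.2%, and the median over all genes moved to 0.37 from 0.05. On the same scaling the share of genes higher at day 35 among those that differed in GRZ-D was 23.3% in place of 48.7%.

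The named genes were chosen by the size of their MZM-0403 skin change, which is 1 side of each difference between strains or tissues. The size and p of these differences are therefore favoured by the choice. Neither of the named genes that fell in MZM-0403 passed the edgeR test in GRZ-D. Nfu_g_1_018267 had a lowest, median and highest value of 27.5, 32.3 and 35.5 CPM in GRZ-D at day 35, against 13.7, 29.6 and 55.0 CPM in GRZ-D at day 21 (log2 fold change -0.07, SE 0.45, edgeR adjusted p 0.924). The GRZ-D ages overlapped, and all GRZ-D fish lay above the MZM-0403 fish of day 35. The difference between the strains was -3.87 (SE 0.71, edgeR adjusted p 0.0001). Nfu_g_1_001651 had 4.95, 7.45 and 10.4 CPM in GRZ-D at day 35, against 3.79, 5.28 and 6.85 CPM in GRZ-D at day 21 (log2 fold change 0.45, SE 0.27, edgeR adjusted p 0.224). With limma voom this GRZ-D rise passed (0.52, adjusted p 0.0207), and over the alternatives its adjusted p ran to 0.55. Both GRZ-D ages overlapped the day 21 range of MZM-0403 and lay above its day 35 range, and the difference between the strains was -4.28 (SE 0.45, edgeR adjusted p 5.67e-08).

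The genes that rose were uneven among GRZ-D fish at both ages. Nfu_g_1_004382 ranged from 0.0977 to 18.9 CPM in GRZ-D at day 35 and from 0 to 11.7 CPM in GRZ-D at day 21. Its difference between the strains was 6.53 (SE 2.70) and missed the threshold (edgeR adjusted p 0.0574). It passed with DESeq2, with all 84 skin libraries and without replicate 6 of MZCS-0403 day 21, in a range of adjusted p from 0.00993 to 0.47. Nfu_g_1_013036 ranged from 0.152 to 1.13 CPM in GRZ-D at day 35 and from 0 to 4.39 CPM in GRZ-D at day 21. Its difference between the strains was 7.62 (SE 2.29, edgeR adjusted p 0.00996), and with limma voom it missed the threshold (adjusted p 0.135, the highest in a range over the alternatives that began at 0.000219).

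The other longer-lived strain was sampled at day 39 in place of day 35, so the later ages differ by 4 days. By the same edgeR fit, 7169 genes changed in the skin of MZCS-0403 (35%), of which 3475 were higher at day 39 than at day 21 (17%) and 3694 lower (18.1%). Of the genes that rose in MZM-0403, 36.2% rose and 7.89% fell in MZCS-0403, and of those that fell, 43.4% fell and 3.02% rose. Across genes the changes correlated at 0.111 (Pearson) and 0.349 (Spearman). Without replicate 6 of MZCS-0403 day 21 these values were 0.362 and 0.467. With total counts the share of higher genes among those that differed in MZCS-0403 was 65.0% in place of 48.5%.

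The comparison of the largest MZM-0403 rises with MZCS-0403 depended on that library. Over the 129 genes that rose at least 16-fold, the median change in MZCS-0403 was -2.75, with 14 genes up (10.9%) and 29 down (22.5%), against 17% up and 18.1% down among all genes. Without replicate 6 it was 0.66, with 16 up and 2 down, against 3996 up and 3741 down of all 20368 genes. With limma voom it was 0.18, with 17 up and 3 down, against 4839 up and 4362 down of all 20465 genes. The number down among the 129 genes also moved with the day 39 fish. It was 5, 49, 6 and 6 without replicates 1, 3, 4 and 6 of MZCS-0403 day 39. The median change stayed negative in these fits, at -2.54, -3.44, -2.67 and -2.55. Over all genes 2941, 2943, 2897 and 3294 were down in them. The number down among the 129 genes was 46 with DESeq2 and 51 with all 84 skin libraries. Over all genes 4203 and 2742 were down in these 2 alternatives. The age change differed between MZM-0403 and MZCS-0403 in 3950 genes (19.3%), more positive in MZM-0403 for 2365 (11.6%) and more negative for 1585 (7.74%). Without replicate 6 of MZCS-0403 day 21 the interaction was past the threshold in 3588 genes, and those with an at least 16-fold more positive change in MZM-0403 numbered 193, against 410 with it (2% of the genes tested).

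**Figure D5:**
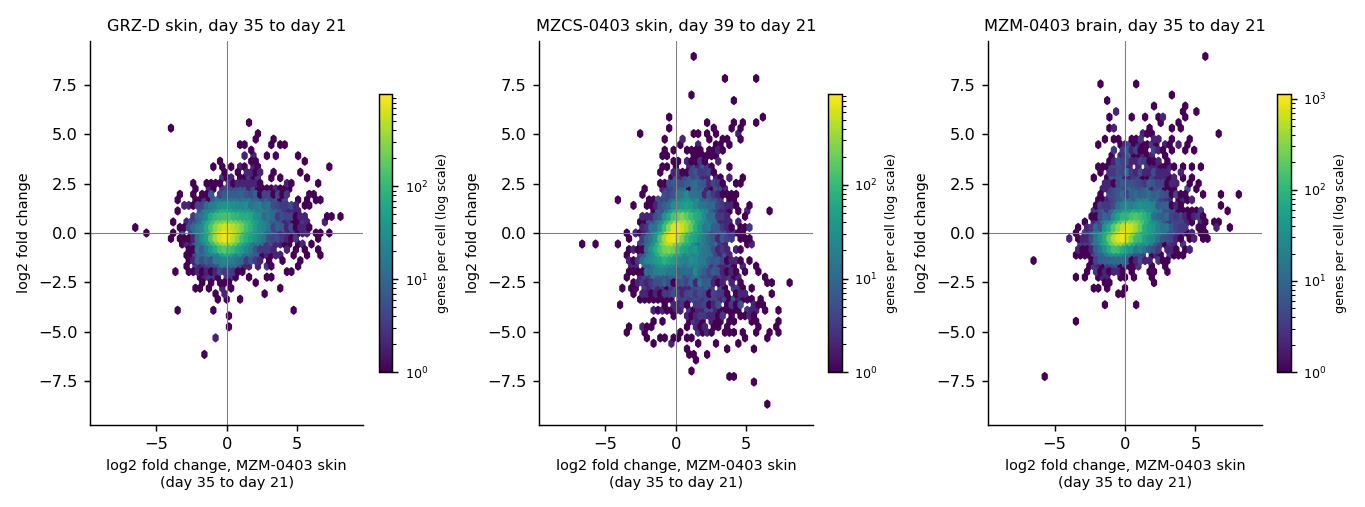
Log2 fold change of each gene in MZM-0403 skin (day 35 to day 21, x axis) against its change in GRZ-D skin (day 35 to day 21), MZCS-0403 skin (day 39 to day 21) and MZM-0403 brain (day 35 to day 21), with colour for the number of genes per cell on a log scale. Pearson correlations across genes are 0.196, 0.111 and 0.370, and the genes at the lower right of the middle panel have upward estimates in MZM-0403 and downward ones in MZCS-0403.

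Both named genes that fell were lower in older MZCS-0403 fish too. Nfu_g_1_001651 had 0.742, 0.355, 0.180 and 0.265 CPM in replicates 1, 3, 4 and 6 of MZCS-0403 day 39, against a lowest, median and highest value of 1.44, 5.51 and 8.14 CPM in MZCS-0403 at day 21 (log2 fold change -3.73, SE 0.41, edgeR adjusted p 5.26e-08). The groups did not overlap, and the difference from the MZM-0403 change was -0.10 (SE 0.54, edgeR adjusted p 0.923). Nfu_g_1_018267 had 11.3, 8.17, 14.8 and 16.5 CPM in replicates 1, 3, 4 and 6 of MZCS-0403 day 39, against 101 to 160 CPM in 4 of the 6 day 21 fish. The other two day 21 fish, replicates 2 and 6, had 12 and 5.48 CPM, within or below the day 39 range. Its log2 fold change in MZCS-0403 was -2.72 (SE 0.61, edgeR adjusted p 0.000864), and the difference from the MZM-0403 change was -1.23 (SE 0.75, edgeR adjusted p 0.259).

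The named genes that rose could not be separated from that 1 fish, and their differences from MZCS-0403 are favoured by the choice of genes. Replicate 6 of MZCS-0403 day 21 had 159 CPM of Nfu_g_1_004382 and 91.0 CPM of Nfu_g_1_013036, while the other 5 fish of its group had at most 0.217 and 0.390 CPM. For Nfu_g_1_004382 the difference of the age changes, MZM-0403 minus MZCS-0403, was 11.86 (edgeR adjusted p 0.0077) with replicate 6 and 2.95 (adjusted p 0.636) without it. For Nfu_g_1_013036 it was 11.58 (edgeR adjusted p 0.00244) with replicate 6 and 4.81 (adjusted p 0.0902) without it, and limma voom gave the highest adjusted p over its alternatives, 0.252.

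The brains of the same 11 fish showed how far the skin changes were shared between tissues. In an edgeR fit of the brain libraries, 9855 of 21495 genes changed (45.8%), of which 5282 were higher at day 35 than at day 21 (24.6%) and 4573 lower (21.3%). Changes of at least 2-fold numbered 1844 (8.58%) in brain, against the 3811 (18.6%) in skin. Of 4719 genes that rose in skin and were tested in brain, 52.6% rose and 6.93% fell in brain, and of 4196 that fell in skin, 44.8% fell and 8.48% rose in brain. Among all genes tested in both tissues, 25.6% rose and 22.2% fell in brain. Across 19543 genes the changes correlated at 0.370 (Pearson) and 0.420 (Spearman). Brain and skin come from the same fish, and genes are not independent replicates.

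The tissue difference itself was tested in the 22 libraries with fish as a block. The age change differed between skin and brain in 3823 of 21288 genes (18%), more positive in skin for 1525 (7.16%) and more negative for 2298 (10.8%). This split moved with the scaling. With DESeq2 size factors in place of TMM, 1315 were more positive and 2771 more negative, or 32.2% positive in place of 39.9%. The median over all genes moved to -0.11 from -0.04. Of the 3823 genes, 3721 were tested in each tissue on its own. For 842 of these the estimate was upward in skin and downward in brain, and for 1319 it was the reverse. In 624 both were upward and in 749 both were downward with the larger size in skin, against 146 and 41 with the larger size in brain. Without the fish that is replicate 7 of day 35 the tissue difference was past the threshold in 6032 genes.

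The named genes that fell in skin were followed in brain. Their tissue differences are favoured by the choice of these genes by their skin change. Nfu_g_1_018267 had 71.2, 80.1, 46, 61.9 and 56.4 CPM in brain at day 35, against a lowest, median and highest value of 61.8, 83.2 and 104.7 CPM in brain at day 21. The brain groups overlapped, and the log2 fold change of -0.35 missed the threshold (edgeR adjusted p 0.0732). This small brain fall passed with total counts (-0.38, adjusted p 0.0454) and without replicate 4 of day 35 (adjusted p 0.0291) or replicate 4 or 5 of day 21, and over the alternatives its adjusted p ran to 0.425. The tissue difference was -3.46 (SE 0.39, edgeR adjusted p 0.000719). Nfu_g_1_001651 had at most 0.331 CPM in any of these brain libraries and did not pass the brain filter on low counts. It was tested in the fit of both tissues, where the tissue difference was -4.66 (SE 0.54, edgeR adjusted p 0.000719). That value rests on at most 13 counts in a brain library.

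The named genes that rose were uneven among brains as well. Nfu_g_1_004382 had 2.49, 0.703, 16.8, 0.774 and 2.12 CPM in the brains of replicates 2, 4, 7, 12 and 13 of day 35, against a lowest, median and highest value of 0.301, 0.447 and 22.5 CPM at day 21. Nfu_g_1_013036 had 1.99, 0.457, 2.45, 0.538 and 1.91 CPM in the day 35 brains, against 0.0335, 0.0916 and 6.53 CPM at day 21. The high day 21 brain was replicate 1 for both genes, and the highest day 35 brain was replicate 7, whereas replicates 4 and 13 were highest in skin. The tissue differences were 5.34 (edgeR adjusted p 0.108) and 3.87 (edgeR adjusted p 0.199), and both missed the threshold. The brain changes were 0.18 (edgeR adjusted p 0.895) and 0.42 (edgeR adjusted p 0.727). Without the brain of replicate 1 of day 21 they were 3.42 (adjusted p 0.000959) and 4.10 (adjusted p 6.71e-05), and the tissue differences without that fish had adjusted p of 0.276 and 0.61. The tissue difference of Nfu_g_1_004382 passed without replicate 7 of day 35 (6.76, adjusted p 0.0308), and both passed without the fish block (adjusted p 0.0182 and 0.0237).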

How the data were processed

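The table the authors deposited holds raw whole-number counts per gene ID for 168 libraries (26739 IDs), with no normalization. Per the labels' protocols, RNA came from a column kit and libraries from a TruSeq RNA v2 kit. The submitters' processing notes name bcl2fastq 1.8.4, STAR 2.5.1b and featureCounts 1.5.0. The genome build, annotation and strand setting are not given in the sources used here, so reads of overlapping, antisense or near-identical genes may be shared. Each column matched 1 sample by name, and libraries were grouped by their labels.

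The analysis used edgeR 4.0.16 in R 4.3.3. The 35 skin libraries of young males entered 1 quasi-likelihood fit with 1 mean per group, TMM scaling, robust estimation and edgeR's filter by group at a minimum count of 10, which kept 20465 genes and removed 0.0267% of the counts. Older fish and females were left out of the fit. Of the 84 skin libraries, 8 lay nearer the GRZ-D brain profile than the GRZ-D skin profile of day 21, 0 of them in the groups used here, and the alternative with all 84 skin libraries includes them. The brains were fitted in the same way, and the tissue difference in 22 libraries with fish as a block. The labels give both tissues of each fish, and the deviations of a fish from its group means in skin and brain correlated at 0.0736 to 0.298. For replicate 4 of day 35 (0.0736) and replicate 1 of day 21 (0.117) the correlation with the own brain was not the highest. The pairing of these fish thus rests on the labels. Genes were called at an adjusted p under 0.05 (Benjamini-Hochberg over all genes tested). CPM are counts scaled to TMM-adjusted library sizes, as edgeR gives them, and log2 CPM has a prior count of 2. The SE was derived from the test, as the absolute log2 fold change over the root of the F value. Single values per library were tested with a 2-sided exact permutation test of the difference of means. Alternatives used DESeq2 1.42.0, limma 3.58.1 with voom and quality weights, other scalings, filters and sets of libraries. The method was tested on simulated data.

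Named genes differed with each library left out, did not overlap in CPM, reached a group mean of 5 CPM at the age where they were higher, and were ranked by the size of the change, and the first 2 in each direction were taken. The comparison, lists and rules were chosen with earlier results of these data known. Lists of pathway genes and cell type markers use gene symbols, and 0 IDs matched the RefSeq table of NfurGRZ-RIMD1, so they were not applied. A floor of 3 counts is 0.131 CPM averaged over the day 21 libraries, and the precision of low levels is limited by counting error besides the spread between fish.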

Additional observations from a re-analysis of the deposited data

Results flagged for a closer look

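Replicate 4 of MZM-0403 day 35 lay at 66.5 on the second principal component of the 11 skin libraries, far from the other 4 libraries of its group. The gap to the nearest of them was 0.718 of the range of the group, past the limit for 5 samples. The component was computed from these same libraries, and 1 divergent library can set its direction. The limit is therefore only a flag here. The value of replicate 4 was the only such value among 22 groups of values tested, where chance gives about 1 in 20.

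Other results drew attention because the age change differed between strains or tissues by a test of the difference itself (edgeR). The count of genes was 7290 for MZM-0403 minus GRZ-D in skin, 3950 for MZM-0403 minus MZCS-0403 in skin and 3823 for skin minus brain in MZM-0403. Among the named genes, the difference of the log2 changes was -3.87 for Nfu_g_1_018267, -4.28 for Nfu_g_1_001651 and 7.62 for Nfu_g_1_013036 in MZM-0403 minus GRZ-D. In MZM-0403 minus MZCS-0403 it was 11.86 for Nfu_g_1_004382 and 11.58 for Nfu_g_1_013036, both of which rest on replicate 6 of MZCS-0403 day 21. Without that library they were 2.95 and 4.81 and missed the threshold. In skin minus brain it was -3.46 for Nfu_g_1_018267. The named genes were chosen by their MZM-0403 skin change, so these differences are favoured by the choice. Causes were not tested.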

How the results depend on the processing

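The count of 9257 genes stayed within 1.5 times over 20 alternatives, from 6602 with the replicate block to 10173 with limma voom, and from 8234 to 9440 with 1 of the 11 libraries left out (9754 without replicate 6 of MZCS-0403 day 21). It was 9537 with DESeq2, 7777 with all 84 skin libraries and 7145 of 18466 genes with only the 11 libraries. The replicate block is no pairing by design: the numbers 2 and 4 occur at both ages, and their deviations correlated at 0.050 and -0.013. With the replicate block the difference from GRZ-D was past the threshold in 4542 genes and that from MZCS-0403 in 2131. Limma voom gave 8383 genes in GRZ-D. The tissue difference was 3942 genes without the fish block. With 1 fish left out it ran from 2647 to 6032 genes, the difference from GRZ-D from 6457 to 7877 and the difference from MZCS-0403 from 3318 to 4647. Per library, the day 35 minus day 21 difference ran from 235.7 to 501.8 genes at equal depth (past 0.05 after adjustment without replicate 12 or 13 of day 35), from -0.0526 to -0.0142 percentage points for brain genes (past it without replicate 4) and from 3331320 to 7209390 total counts (past it without replicate 7). The causes were not tested. Of the named genes, Nfu_g_1_004382 lost its call with voom (5.34). Nfu_g_1_013036 has no value with only the 11 libraries, where it failed the filter. At least 16-fold rises numbered 211 with the replicate block, which left 0 of the 129 genes down and 14 up in MZCS-0403 (median -1.63). Over all 20465 genes it gave 3228 down and 3287 up in MZCS-0403. The values at equal depth and the alternatives that leave out an MZCS-0403 library or a brain were chosen after seeing the data. Genes without names, 5 and 6 fish and a p that misses the threshold limit what can be said of what did not change.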

Other observations

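The genes that rose most in skin were uneven among brains. Of the 129 genes that rose at least 16-fold in MZM-0403 skin, 90 were tested in brain, where 28 rose (31.1%) and 2 fell (2.22%), against 25.6% and 22.2% of all genes tested in both tissues. Their median level was 1.18, 0.721, 2.32, 0.774 and 0.762 CPM in the brains of replicates 2, 4, 7, 12 and 13 of day 35. In the day 21 brains it was 1.4 CPM in replicate 1 and 0.268 to 0.318 CPM in the other 5. Every day 35 brain thus lay above 5 of the 6 day 21 brains, and replicate 1 of day 21 lay within the day 35 range. In the skin of that fish the median of all 129 genes was 0.0411 CPM, within the range of the day 21 group.

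The most abundant transcripts of MZM-0403 skin moved little in median but not evenly. Of the 10 most counted genes over the 11 libraries, 1 rose and 3 fell, with log2 changes from -1.81 to 1.92, and their summed mean level was 176691 CPM at day 35 and 261727 CPM at day 21. Of the 100 most counted, 25 rose and 27 fell. Among all genes tested 24.3% rose and 20.9% fell, so the counts for these 100 genes were near the share of all genes. No gene with at most 3 counts in every day 21 library reached a mean of 5 CPM at day 35 (0 genes), and none was found in the other direction (0 genes). The first of these counts depends on the cutoff. Nfu_g_1_004382 and Nfu_g_1_013036 had at most 4 counts in a day 21 library and day 35 means of 16.3 and 8.33 CPM.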
